A study of Drosophila melanogaster with 8 samples.

Results

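The 38 protein-coding genes described here encode the proteins of the small (40S) subunit of the cytoplasmic ribosome of Drosophila melanogaster. They were taken by symbol from the RefSeq Release 6 gene table, as every gene named RpS with a number together with stubarista (sta), and without names containing -like. All 38 lie among the 13922 protein-coding genes of the 6 main arms. The rule uses names alone and no measured value. The data are ChIP-seq peaks of Ribbon (Rib), a transcription factor with a BTB domain needed for the shaping of embryonic tubes such as the trachea and the salivary gland, and the genes were followed through every peak list.

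Embryos carried a GAL4 driver, btl-GAL4 or trh-GAL4, and a UAS transgene, and chromatin was immunoprecipitated from whole embryos with a goat antibody to GFP. The titles and genotypes give btl-GAL4::UAS-GFP and trh-GAL4::UAS-GFP, while the protocol gives UAS-rib-GFP for both drivers, and the protocol was followed here. If the titles were right, no value below would measure Rib. The age is stage 11 to 15 in the characteristics and stage 11 to 16 in the protocol, and flies were kept at 25 °C. The btl driver had 3 immunoprecipitated samples (replicates 1, 2 and 3) and 2 inputs, and the trh driver had 2 immunoprecipitated samples (replicates 1 and 2) and 1 input. Replicate 3 of btl was made with another library kit and sequenced at another centre, so these cannot be told apart from the replicate. Under GAL4 the fusion is made in addition to the embryo's own Rib and in the cells where the driver is active, and the antibody reads only the fusion. Tissue identity cannot be checked in peak lists, and embryos without a GFP fusion were not analysed here.

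Ribosomal proteins are made in equal amounts and assemble with ribosomal RNA. The small subunit reads the messenger RNA: its head and body close around the message, the decoding centre lies between them, and the platform holds the exit side of the message. Loss of 1 copy of many of these genes gives the Minute phenotype of slow development and thin bristles in Drosophila. Their promoters are known for a pyrimidine-rich initiator in place of the common one, and Trf2, M1BP and Dref are among the factors known to act on them. The series title concerns the transcription of ribosomal protein genes during the growth of embryonic secretory cells.

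Use was made of 3 peak lists with summits, where a summit is the base of highest signal in a peak. The btl list came from btl replicates 1 and 2 together and held 8693 summits, the trh list came from trh replicates 1 and 2 together and held 3210, and the replicate 3 list came from btl replicate 3 alone and held 17155 summits in 10211 regions. Strength is the authors' fold enrichment over background at the summit, a linear ratio, with list medians of 2.87, 2.16 and 2.39 in that order. Ranks count from the strongest summit of a list, and a percentile is the share of the list's summits at or below the value. Folds are comparable within a list, not between lists. Bound here means that at least 1 summit fell no more than 500 bp from the low or the high end of the gene. The gene table used here gives no strand, so ends are named by coordinate, and the start of a gene is not told apart from its last base. Peak lists carry no depth and no value for single replicates of the btl and trh lists, so the values have no replicate error, no test was run, and Wilson 95% intervals cover counting error only.

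In all 3 lists small-subunit genes were bound in a larger share than protein-coding genes at large. In the btl list 21 of 38 were bound (55.3%, Wilson interval 39.7 to 69.9%), where 26.7% of all protein-coding genes were. In the trh list 12 of 38 were bound (31.6%, Wilson interval 19.1 to 47.5%), beside a background of 8.32%. In the replicate 3 list 27 of 38 were bound (71.1%, Wilson interval 55.2 to 83.0%), beside 36.1%. Each of the 3 intervals lies above its background share, but this is a description and no test. The intervals treat the genes as independent, although RpS14a and RpS14b share a summit. The btl and replicate 3 lists also come from the same driver. In the pooled lists the share among strong summits turned on the column that ranked them. Counting only summits above the list median by fold, 5 of 38 genes were bound in btl (background 10.3%), 1 of 38 in trh (3.40%) and 17 of 38 in replicate 3 (24.4%). Above the list median by the authors' -log10 q stood 10 of 38 in btl (13.9%), 7 of 38 in trh (4.39%) and 20 of 38 in replicate 3 (25.3%). A summit in all 3 lists was found at 6 genes (15.8%), beside 5.28% of all protein-coding genes. That count was 11 with a window of 1000 bp (background 8.41%) and 11 when any part of a region counted (7.18%). A further 5 genes had none in any list (13.2%), beside 57.6%. The 50 large-subunit genes had 42.0% bound in btl, 28.0% in trh and 56.0% in replicate 3. The intervals of the small and large subunits overlap in every list, and their difference was not tested.

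**Figure D1:**
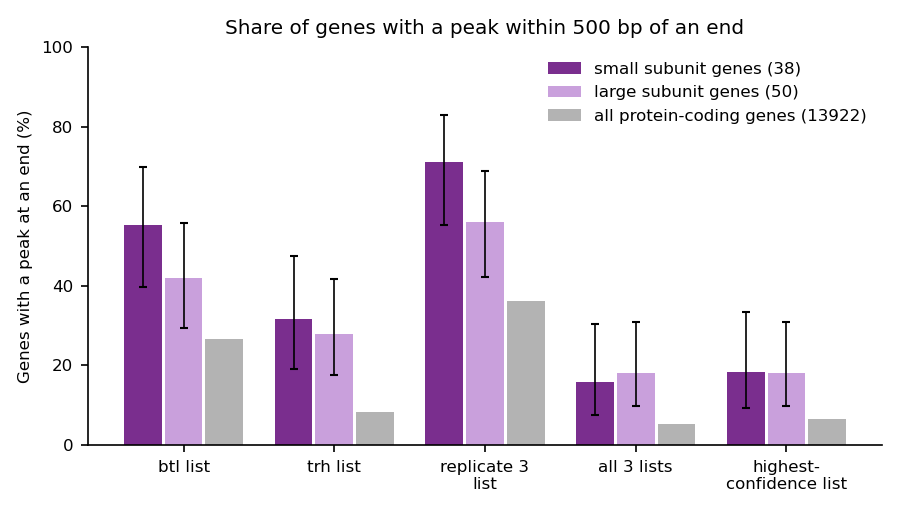
Percentage of genes (vertical axis) with a peak within 500 bp of an end, in each peak list, for small-subunit genes, large-subunit genes and all protein-coding genes; bars are shares and error lines are Wilson 95% intervals. Small-subunit genes stand at 55.3% (btl), 31.6% (trh) and 71.1% (replicate 3), above the grey bars at 26.7%, 8.32% and 36.1%.

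The lists did not name one common set. Of the 38 genes, 11 were bound in btl and replicate 3 without trh (28.9%, beside 16.1% of all protein-coding genes) and 9 in replicate 3 alone (23.7%, beside 13.5%). Btl and trh without replicate 3 held 3 genes (7.89%, beside 0.790%), trh alone 2 (5.26%, beside 0.984%), btl alone 1 (2.63%, beside 4.53%), and trh with replicate 3 also 1 (2.63%, beside 1.27%). Together 33 of 38 were bound in at least 1 list. The lists differ in length, so a gene missing from the short trh list is not shown to be unbound with that driver.

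The 6 genes found in all 3 lists were RpS10b, RpS19a, RpS6, RpS15Aa, RpS27 and RpS3A. RpS10b (Dmel_CG14206, chromosome X, 19598031 to 19599806) encodes a protein of the head near the entry of the message. It had a fold of 6.05 in the btl list (rank 335 of 8693), 2.00 in the trh list (rank 2048 of 3210) and 8.43 in the replicate 3 list (rank 49 of 17155). The btl and replicate 3 summits lay 10 bp apart, 144 and 154 bp outside the low end, while the trh summit lay 38 bp inside it. RpS10b was the strongest small-subunit gene in the btl and replicate 3 lists and stood below the median fold of the trh list.

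RpS19a (Dmel_CG4464, chromosome X, 16637894 to 16639249) is the ubiquitous copy of a head protein whose human counterpart is mutated in Diamond-Blackfan anaemia. Its folds were 2.44 (rank 6028), 1.81 (rank 2580) and 3.03 (rank 5095) for btl, trh and replicate 3. RpS6 (Dmel_CG10944, chromosome X, 7899624 to 7901331), the substrate of S6 kinase, had folds of 2.31 (rank 6526), 2.00 (rank 2051) and 4.05 (rank 2350). By fold both genes were below the list median with either pooled list and above it in replicate 3. By -log10 q both were above the median in every list, with RpS19a at percentiles 54 in btl and 56.3 in trh and RpS6 at 53.5 and 67.4. RpS15Aa (Dmel_CG2033, chromosome X, 13335637 to 13337705), a body protein, had folds of 2.73 (rank 4864), 2.00 (rank 2031) and 5.63 (rank 668). No other protein-coding gene end lay within 500 bp of the summits of these 3 genes.

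RpS27 (Dmel_CG10423, chromosome 3R, 25245955 to 25247514), a zinc-binding protein of the platform side, had peaks at both ends. At the low end the btl fold was 4.34 (rank 1325) and the replicate 3 fold 2.49 (rank 7823), with no trh summit. At the high end the folds were 2.61 (rank 5297) in btl, 1.84 (rank 2515) in trh and 3.28 (rank 4220) in replicate 3, and these summits also lay within 500 bp of Nup37. The 2 lists of the btl driver thus ranked the ends in opposite order. RpS3A (Dmel_CG2168, chromosome 4, 65225 to 67207), the only small-subunit gene on chromosome 4, encodes a platform protein. It had folds of 3.27 (rank 3118), 1.58 (rank 3042) and 2.14 (rank 10561), so it was above the median of the btl list and below it in the other 2.

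A further deposited list of 2198 highest-confidence regions touched the 500 bp windows of 7 small-subunit genes (18.4%), beside 6.6% of all protein-coding genes. All 2198 regions were the exact intersections of the 3 other lists, so this list adds no independent evidence. It held the same 6 genes and RpS15, whose region began 496 bp from the high end. The btl and trh summits near RpS15 lay 570 and 571 bp from the gene.

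Among the 18 genes of head proteins, 8 had a btl summit (44.4%, Wilson interval 24.6 to 66.3%, beside 26.7% of all genes). As many had a trh summit (44.4%, interval 24.6 to 66.3%, beside 8.32%), and 11 had a replicate 3 summit (61.1%, interval 38.6 to 79.7%, beside 36.1%). The btl interval includes its background. RpS12, a head protein that Drosophila cells use to sense ribosome imbalance in cell competition, had a btl fold of 2.73 (rank 4841) and a trh fold of 1.82 (rank 2562) at summits 35 bp apart, and its nearest replicate 3 summit was 832 bp from the gene. RpS27A, made as a fusion of ubiquitin to the ribosomal protein, had 2.20 (rank 6972) and 1.86 (rank 2438) at btl and trh summits only 3 bp apart, 29 and 32 bp outside its low end. That end coincides with an end of Ip259, and Ir31a also lay within 500 bp, so these peaks could belong to any of the 3 genes. Both genes had a summit with each driver in the batch of replicates 1 and 2 and none in replicate 3.

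RpS5a, the ubiquitous copy of a head protein at the exit of the message, had 2.27 (rank 6707) in btl and 5.36 (rank 827) in replicate 3, with both summits outside the high end. RpS25, needed for initiation at some internal ribosome entry sites, had 1.95 (rank 7829) in btl and 2.64 (rank 6919) in replicate 3. CG4820 also lay within 500 bp of both summits. The replicate 3 summit was 89 bp from CG4820 and 159 bp from RpS25. RpS29, a zinc-binding protein, had 2.04 (rank 7520) and 2.38 (rank 8586) in the same lists, with topi also within 500 bp. RpS5a, RpS25 and RpS29 were below the median fold of the btl list, and RpS5a was above the 90th percentile of replicate 3. RpS28b, a protein at the exit of the message, had 1.66 (rank 2884) in trh and 7.09 (rank 190) in replicate 3, and its nearest btl summit was 899 bp away.

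RpS18 and RpS16 were found in the trh list alone. RpS18, whose protein contacts the large subunit, had a fold of 1.71 (rank 2803) at a summit 17 bp outside the low end, with plu also within 500 bp. RpS16, whose tail reaches the transfer RNA in the peptidyl site, had 1.54 (rank 3106) at a summit 414 bp inside the gene. It was the farthest of any small-subunit gene with trh, and CG4294 also lay within 500 bp. Replicate 3 alone named 5 head genes. RpS3, at the entry of the message, had 3.31 (rank 4112) and RpS20 had 2.48 (rank 7981). Sec13 also lay within 500 bp of the RpS3 summit, and CG17271 within 500 bp of the RpS20 summit. RpS15 had 1.82 (rank 14153), RpS10a had 1.82 (rank 14154) and RpS28a had 6.11 (rank 441). The RpS28a summit lay 341 bp from RpS28a and 217 bp from Mgat2, so the strong peak was nearer the other gene.

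Among the 20 genes of body and platform proteins, 13 had a btl summit (65.0%, Wilson interval 43.3 to 81.9%, beside 26.7% of all genes). A trh summit was found at 4 (20.0%, interval 8.07 to 41.6%, beside 8.32%) and a replicate 3 summit at 16 (80.0%, interval 58.4 to 91.9%, beside 36.1%). The trh interval includes its background. RpS21, whose loss causes overgrowth of blood-forming organs in Drosophila larvae, had the third highest btl fold of all small-subunit genes, 4.08 (rank 1639), and 4.34 (rank 1860) in replicate 3. Those summits lay 180 and 316 bp outside its high end but only 45 and 181 bp from CG2991. RpS9, at the entry of the message, had 1.85 (rank 8087) in btl, 296 bp from its low end and 86 bp from CG3408. In replicate 3 RpS9 had 2.62 (rank 7017), 420 bp from its low end and 210 bp from CG3408. For both genes the strongest btl summit was nearer to the neighbour.

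RpS23, a protein of the decoding centre, had 2.22 (rank 6906) in btl and 3.77 (rank 2886) in replicate 3, with no other protein-coding gene end within 500 bp. RpS13 had 2.00 (rank 7680) and 1.95 (rank 12643), and RpS24 had 1.88 (rank 8003) and 1.99 (rank 12165) in the same lists. RpS13 and RpS24 were thus weak in each list of the btl driver. CSN8 also lay within 500 bp of the RpS13 summits, and Ugt317A1 within 500 bp of the RpS24 summits. RpS30, made as a fusion to a ubiquitin-like protein, was found in the btl list alone, with 2.63 (rank 5206), and its nearest replicate 3 summit was 13718 bp away.

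The tandem genes RpS14a and RpS14b, platform proteins, lie 221 bp apart on chromosome X and share a btl summit between them with a fold of 1.81 (rank 8194). The btl list had a weaker summit, 1.63 (rank 8508), beyond RpS14b and nearer to Ubr3. In replicate 3 a single region with 8 summits ran over both genes, with 4.26 (rank 1986) between them and 4.98 (rank 1131) beyond RpS14b, 190 bp from Ubr3. The 2 genes are near-identical copies, so reads could be placed at either of them. How the authors placed such reads is not given in the sources used here.

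Replicate 3 alone named further body genes. The gene sta, which encodes the protein also called the laminin receptor precursor, had a fold of 3.30 (rank 4170) at a summit 33 bp outside its high end, where inc and Nmdar2 also lie within 500 bp. RpS4 had a fold of 2.35 (rank 8853). RpS26, a protein at the exit of the message, had 1.44 (rank 17127 of 17155), nearly the weakest summit of the list. By fold RpS4 and RpS26 were below the list median and sta above it, while by -log10 q RpS4 stood at percentile 60.4.

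No list had a summit within 500 bp of RpS2, RpS7, RpS5b, RpS15Ab or RpS19b. For RpS2, a protein that shapes the entry of the message, the nearest summits lay 5380, 9962 and 5460 bp from the gene, given in the order btl, trh, replicate 3. For RpS7, a body protein, they lay 3335, 3356 and 2148 bp away. RpS5b had its nearest at 5817, 46479 and 2327 bp, RpS15Ab at 1814, 46476 and 1157 bp, and RpS19b at 1185, 9620 and 1114 bp. The bound genes were clear of the 500 bp limit in the btl list, where the farthest nearest summit was 296 bp away at RpS9 and the next gene, RpS15, stood at 570 bp. In the trh list these were 414 bp at RpS16 and 547 bp at RpS21, and in replicate 3 they were 341 bp at RpS28a and 541 bp at RpS16. No list had members bunched at the limit.

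**Figure D2:**
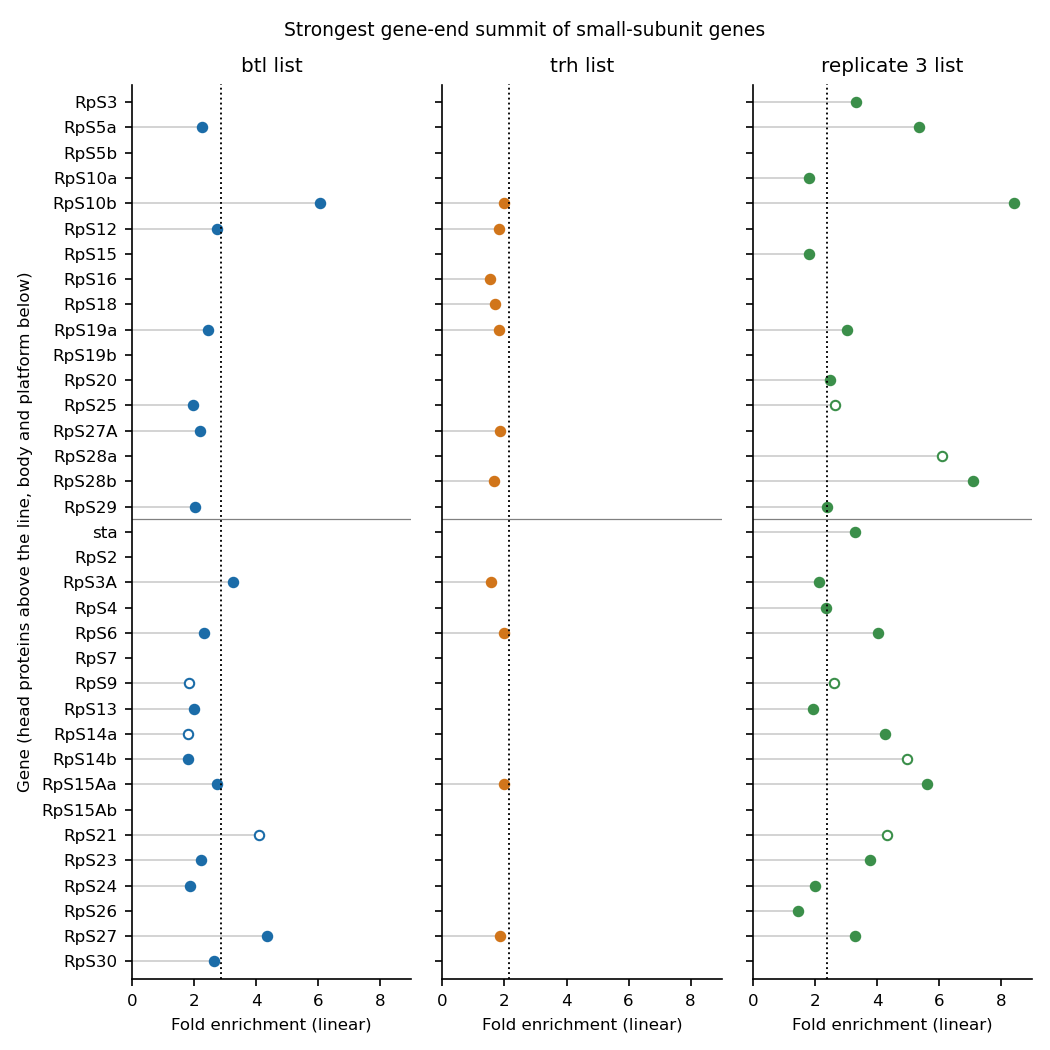
Fold enrichment (horizontal axis, linear) of the strongest summit within 500 bp of either end of 35 small-subunit genes (vertical axis), in each of the 3 lists; filled circles mark summits nearest to the gene itself, open circles those nearer to another gene, the dotted line is the median of the whole list, and no circle means no summit. RpS10b stands out at 6.05 in the btl list and 8.43 in replicate 3, and the trh circles drawn lie below the trh median.

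The peaks at small-subunit genes were of low fold in the pooled lists and of ordinary fold in replicate 3. By the strongest summit of each bound gene, the median fold was 2.31 in the btl list (range 1.81 to 6.05), where all bound protein-coding genes had 2.59. It was 1.83 in the trh list, beside 2.04, and 3.03 in replicate 3 (range 1.44 to 8.43), beside 2.90. As percentiles of the list the medians were 24.9 against 38.5 in btl, 21.0 against 39.8 in trh and 70.3 against 67.3 in replicate 3. The large-subunit genes had 31.2, 35.9 and 54 in that order, so they too were low in the pooled lists. Above the median fold of the list stood 5 of 21 small-subunit genes in btl and 1 of 12 in trh. In replicate 3 it was 17 of 27. Over all bound protein-coding genes the counts were 1432 of 3713, 473 of 1159 and 3392 of 5026 in the order btl, trh, replicate 3.

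Ranking by the authors' -log10 q, a measure of how far a peak's signal exceeds its background given the reads there, placed the bound genes higher in the btl and trh lists and left replicate 3 nearly as it was. The median percentile was then 47.9 in btl beside 52.3 for all bound genes, 58.8 in trh beside 52.9, and 70.2 in replicate 3 beside 69.1. For the strongest summit, the percentile by -log10 q exceeded that by fold at 20 of 21 genes in btl, at 12 of 12 in trh and at 17 of 27 in replicate 3. The shares over all bound protein-coding genes were 69.7%, 63.0% and 66.2%. RpS27 in the trh list moved from percentile 21.7 by fold to 77.9 by -log10 q, and RpS10b there from 36.2 to 87.2. Whether these genes are weak or ordinary in the pooled lists thus depends on the column.

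**Figure D3:**
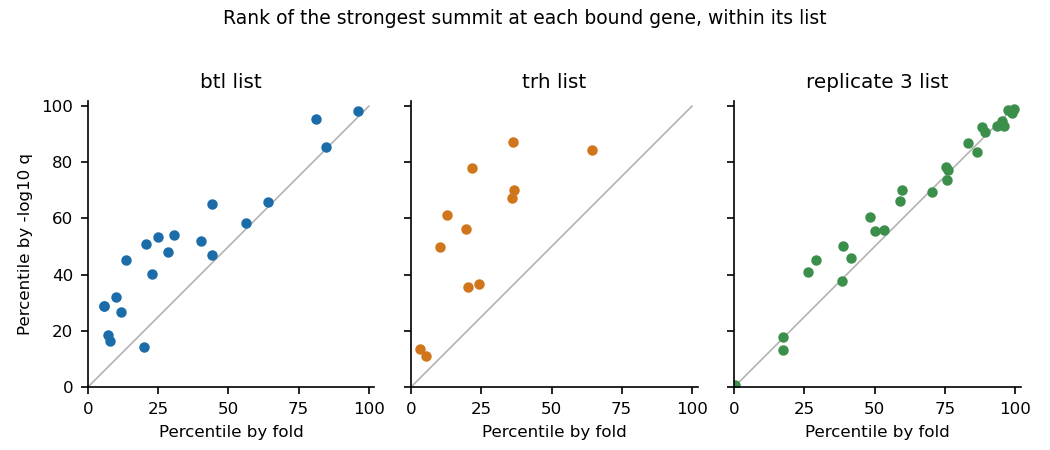
Percentile within the list by -log10 q (vertical axis) against percentile by fold (horizontal axis) for the strongest summit of each bound small-subunit gene, 1 panel per list; the line marks equal percentiles. All 12 points of the trh list and 20 of 21 of the btl list lie above the line, and those of replicate 3 lie on both sides of it, with 17 of 27 above.

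Within the 500 bp limit set by the rule, the distances of the summits from the gene ends differed between lists. The median distance was 144 bp in btl (23 pairs of a summit and a gene), 63.5 bp in trh (12 pairs) and 190 bp in replicate 3 (41 pairs), beside 141, 125 and 191 bp for all protein-coding genes. In the trh list 10 of the 12 lay inside the gene (83.3%), where the share over all genes was 41.0%. Inside summits made up 52.2% in btl, beside 44.0%, and 51.2% in replicate 3, beside 51.0%. The trh summits at RpS27A and RpS18 were the 2 outside, at 32 and 17 bp. The large-subunit genes shared the trh position, with 14 of 15 summits inside (93.3%) at a median distance of 62 bp. Their inside shares were 72.7% in btl and 58.8% in replicate 3.

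At most sites shared between lists the summits fell in one order: trh nearest to the gene end, btl next and replicate 3 farthest. At RpS6 the trh, btl and replicate 3 summits lay 105, 159 and 218 bp inside the high end. At RpS15Aa the distances were 123, 221 and 258 bp, and at RpS3A 66, 140 and 258 bp, inside the high end as well. RpS19a had 89, 137 and 184 bp inside its low end, and RpS27 had 36, 101 and 198 bp inside its high end. The order was thus the same at these 5 genes. RpS10b differed, with its trh summit on the other side of the end.

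Over all shared sites with summits within 200 bp of each other and on the same side of the end, the btl summit was farther from the end than the trh summit at 7 of 8 small-subunit genes, by a median of 59.5 bp, and deeper inside the gene at these 7. The exception was RpS27A, where the trh summit was farther by 3 bp. For all protein-coding genes the share was 56.8%, with a median of 9 bp. The replicate 3 summit was farther from the end than the btl summit at 15 of 16 genes, by a median of 59 bp. The exception was RpS14a. Its summits lie between it and RpS14b and are counted again there, in the opposite order. Ends left out went both ways. At the high end of RpS14b the btl summit was farther (340 against 294 bp), and at the low end of RpS27 the replicate 3 summit (308 against 290 bp). Over all genes the replicate 3 summit was farther than btl at 70.7%, with a median of 39 bp. It was farther than the trh summit at 6 of 6 small-subunit genes with a median of 136 bp, beside 72.9% and 48 bp. The 3 comparisons share lists and are not independent. Library kit, sequencing centre, driver, the pooling of replicates and the calling of summits move with the list. The btl and trh lists hold 1 summit per region, while replicate 3 holds 17155 summits in 10211 regions. The part of these differences in the order was not tested.

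**Figure D4:**
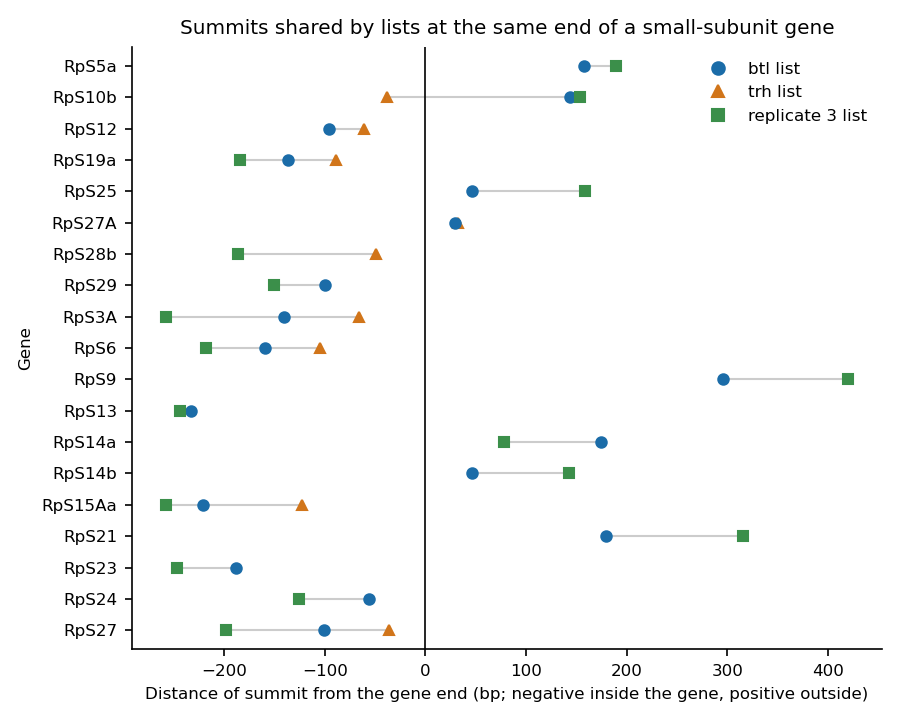
Distance in bp of summits from the gene end (horizontal axis; negative values inside the gene, positive outside) at small-subunit genes where 2 or 3 lists have summits within 200 bp of each other at the same end; triangles are trh, circles btl and squares replicate 3. Along most rows the triangle lies nearest to 0, the circle next and the square farthest, as at RpS3A with 66, 140 and 258 bp inside the gene.

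Small-subunit genes are short, and most have a close neighbour, as do most protein-coding genes. Their median length was 1376 bp, beside 2163 bp for all protein-coding genes, and 30 of 38 had an end of another protein-coding gene within 500 bp of one of their own (78.9%, beside 71.0% of all). Of the summits at these genes, 12 of 23 in btl (52.2%), 4 of 12 in trh (33.3%) and 22 of 41 in replicate 3 (53.7%) were also within 500 bp of another gene. Over all protein-coding genes these shares were 58.3%, 43.6% and 54.1%. When each summit was given only to the nearest gene end, 17 genes stayed bound in btl, 12 in trh and 25 in replicate 3, with backgrounds of 19.7%, 6.65% and 28.8% under the same rule. The genes lost included RpS9, RpS14a and RpS21 in btl and RpS25 and RpS28a in replicate 3. No trh summit was nearer to another gene, with RpS27A and Ip259 tied.

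Among the proteins 6 have a pair of gene copies, marked a and b, and 5 of the pairs have 1 copy on chromosome X and 1 on an autosome. In all 5 the X copy was bound in more lists. RpS10b was bound in 3 lists and RpS10a in 1, RpS15Aa in 3 and RpS15Ab in none, RpS19a in 3 and RpS19b in none, RpS5a in 2 and RpS5b in none, and RpS28b in 2 and RpS28a in 1. RpS5b, RpS10a and RpS19b are known as copies enriched in the germ line, while RpS5a and RpS19a are used throughout the body. In replicate 3 the RpS10 copies differed in fold by 8.43 against 1.82, while RpS28b at 7.09 and RpS28a at 6.11 differed less, the second at a summit nearer to Mgat2.

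Small-subunit genes on chromosome X were bound in a larger share than those elsewhere in each list. All 9 were bound in replicate 3, 7 in btl and 5 in trh, where the 29 genes on the other arms had 18, 14 and 7. Over all protein-coding genes the X and the other arms had 38.4% and 35.7% bound in replicate 3, 23.4% and 27.3% in btl, and 8.10% and 8.37% in trh. Of the 6 genes found in all 3 lists, 4 are X-linked. These are 44.4% of the 9, beside 5.28% of protein-coding genes on all arms together. That background was not split by arm. On 3R, which holds the most small-subunit genes, 8 of 12 were bound in replicate 3 (66.7%), beside 37.7% of all protein-coding genes of that arm. In btl it was 4 (33.3%, beside 28.5%) and in trh 1 (8.33%, beside 7.98%), both near the share of the arm. The difference between arms was not tested, and RpS14a and RpS14b share peaks. The X copies of the 5 pairs above are among the 9 genes. Their other copies are among the 29, most of them on 3R. The contrasts between arms and between copies are therefore not independent.

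Many small-subunit genes carry genes for small nucleolar RNAs (snoRNAs), which guide modification of ribosomal RNA, within their introns or other bounds. At least 1 lay inside 13 of 38 (34.2%), beside 0.690% of all protein-coding genes, with 14 inside RpS5a and 7 inside RpS7. Of the 13 hosts, 7 were bound in btl (53.8%), 4 in trh (30.8%) and 10 in replicate 3 (76.9%). Over all 96 protein-coding snoRNA hosts, which include the 13, the shares were 41.7%, 19.8% and 64.6%. These lie inside the Wilson intervals of the 13, which are wide (29.1 to 76.8%, 12.7 to 57.6% and 49.7 to 91.8%). Of the 25 others 14 were bound in btl (56.0%), 8 in trh (32.0%) and 17 in replicate 3 (68.0%), and the Wilson intervals of hosts and others overlap in each list.

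The factors known at ribosomal protein gene promoters were looked at by the same rule. Trf2, a TATA-binding protein relative, had a btl fold of 2.07 (rank 7448) and a replicate 3 fold of 3.00 (rank 5171). Trl, which encodes the GAGA factor, had 3.64 (rank 3187) in replicate 3, M1BP 2.18 (rank 10217) and Dref 1.93 (rank 12756). None of the 4 genes had a summit at an end in the trh list (beside 8.32% of all protein-coding genes). Only Trf2 had one in btl (beside 26.7%), and all 4 had one in replicate 3 (beside 36.1%). With 4 genes these counts cannot be told apart from the background shares in trh and btl. In replicate 3 the difference was not tested, and the 4 genes were chosen by name. By fold M1BP and Dref were below the median of that list, at percentiles 40.4 and 25.6. Trf2 and Trl were above it, at 69.9 and 81.4.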

How the data were processed

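Peak lists of Rib-GFP ChIP-seq were read as deposited. The submitters' processing notes name CASAVA 1.8.2, Bowtie2 2.3.4.3 and 2.3.4.1, SAMtools 1.9 and 1.7, Picard, MACS2 2.2.4, bedtools and the dm6 build, without role or order. The labels give single-end reads of 50 bp. Per the labels, chromatin was fixed in 1.8% formaldehyde. The btl and trh lists carry an irreproducible discovery rate of 0.1 in their names, and the replicate 3 list carries none. The lists have no header. In the MACS2 layout the deposited column 7 is the fold enrichment ratio at the summit and the deposited column 9 is the -log10 q-value, and this reading was used. The highest-confidence list as deposited has positions only.

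Coordinates are 1-based on Release 6. Gene ends came from the RefSeq table; the 13922 protein-coding genes on 6 arms gave the background. Ranks cover every line of a list. Python 3.11.15, pandas 2.3.3, numpy 2.4.6 and scipy 1.17.1 were used, and placement was tested on simulated data. Small-subunit genes were named in order of their place in the subunit; the values of 3 of the 38 are not reported here, and they remain in the counts. The genes and comparison lists were chosen with earlier results of these data known. Depth is unknown from peak lists. Motifs, strand and sequences were not used here.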

Additional observations from a re-analysis of the deposited data

How the results depend on the processing

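Of 29 alternative values, 18 lay within 1.5 times the reported one. Windows of 250 and 1000 bp, placing by any part of a region and giving a summit to the nearest gene changed no list's count beyond that, but the count in all 3 lists was 11 instead of 6 with a window of 1000 bp (background 8.41%) and 11 when any part of a region counted (background 7.18%). Keeping summits above the list median by fold left 5 of 38 genes in btl (background 10.3%), 1 in trh (3.40%) and 17 in replicate 3 (24.4%). The same by -log10 q left 10 in btl (13.9%) and 7 in trh (4.39%). With only the 3210 strongest summits by fold, 4 genes were bound in btl (7.36%) and 10 in replicate 3 (11.9%). With these fold-based selections the shares in btl and trh were close to the background, and the share in replicate 3 was not. By -log10 q the median percentiles were 47.9 in btl, 58.8 in trh and 70.2 in replicate 3, against 24.9, 21.0 and 70.3 by fold. The cause was not tested. No paired analysis was possible because each pooled list merges its replicates, and for the same reason no replicate was left out.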

Other observations

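Replicate 3 merged some small-subunit loci into long regions with many summits. The region over RpS14a and RpS14b held 8 summits, that over RpS21 held 12 and that over the high end of RpS27 held 5. The btl and trh lists have 1 summit for every region throughout, so no such count can be compared with them. Among bound small-subunit genes, at least 2 summits within 500 bp of the ends were found at 9 of 27 in replicate 3 (33.3%, beside 23.5% of all bound protein-coding genes), at 2 of 21 in btl (9.52%, beside 6.54%) and at 0 of 12 in trh (beside 4.57%). Summits at both ends were found at 8 of 27 in replicate 3 (29.6%, beside 10.1%), at 2 of 21 in btl (9.52%, beside 6.28%) and at 0 of 12 in trh (beside 3.11%). The lists differ in length, and no difference was tested. The strongest summits at bound genes were in narrower regions than those of all bound protein-coding genes, with median widths of 495 against 629 bp in btl, 304 against 351 bp in trh and 800 against 989 bp in replicate 3. Large-subunit genes were also narrower, at 469, 316 and 758 bp in that order.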
